A study of Mus musculus with 12 samples.

Results

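The genes described here encode the β-catenin destruction complex and its nearest regulators, in mouse mammary organoids treated with CHIR99021, a small molecule that inhibits the kinase GSK3. They are Axin1, Axin2, Apc, Gsk3a, Gsk3b, Csnk1a1 and Btrc of the complex, Dvl1, which acts against it, and Nkd1 and Nkd2, which act on Dishevelled. They were chosen by symbol from the table of raw read counts, where they are 10 of 25210 genes, and all 10 were among the 15316 genes with enough counts to be tested. Primary mammary epithelial organoids from female virgin FVB/N mice of 8 to 11 weeks were grown in growth-factor reduced Matrigel in minimal medium. For 7 days they received the vehicle dimethyl sulfoxide (DMSO) or CHIR99021 at 1, 1.5 or 3 µM. Cultures from 3 animals each received all 4 treatments, which gives 12 libraries of stranded, polyadenylated RNA with 3 in each group. The labels name no engineered allele in any group. The cultures, here called 1, 2 and 3, also carry the words med, min and max in the sample titles, and what these stand for is not given in the sources used here.

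In cells without a WNT signal, the scaffold AXIN1 or AXIN2 holds β-catenin together with APC so that casein kinase 1α (from Csnk1a1) and then GSK3 can phosphorylate it, after which β-TrCP (from Btrc) recognises it for ubiquitination and degradation. A WNT signal acts through Dishevelled (Dvl1) to stop this, and CHIR99021 stops the GSK3 step directly, so that β-catenin builds up and drives genes through TCF/LEF factors. Axin2, Nkd1 and Nkd2 are known as feedback genes, switched on by the pathway in many tissues and acting against it. The libraries measure messenger RNA and not the activity or amount of these proteins.

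The stretch just upstream of the start site is shown for Axin2, Dvl1 and Gsk3a, the members that rose with CHIR99021 and have an entry in the RefSeq promoter table (6 of the 10 genes have one). Each is 250 bases, read 5′ to 3′ on the strand of the gene, on mouse build GRCm38.p6. Both strands were searched for letters of the TCF/LEF type, which were the motif CTTTGAA and its variants written CTTTGAT, or else CTTTGTA, or else CTTTGTT. A match is in capitals.
Axin2, chr11:108920099-108920348, plus strand: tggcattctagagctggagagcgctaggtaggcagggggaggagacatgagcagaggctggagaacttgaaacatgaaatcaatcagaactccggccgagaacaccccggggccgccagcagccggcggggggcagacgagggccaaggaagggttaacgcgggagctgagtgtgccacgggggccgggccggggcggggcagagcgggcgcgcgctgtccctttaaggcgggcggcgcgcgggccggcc
Dvl1, chr4:155847152-155847401, plus strand: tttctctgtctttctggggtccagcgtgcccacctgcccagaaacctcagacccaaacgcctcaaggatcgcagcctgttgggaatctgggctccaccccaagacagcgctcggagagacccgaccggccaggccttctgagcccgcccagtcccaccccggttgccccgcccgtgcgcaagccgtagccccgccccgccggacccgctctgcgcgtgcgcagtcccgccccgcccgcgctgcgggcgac
Gsk3a, chr7:25237852-25238101, minus strand: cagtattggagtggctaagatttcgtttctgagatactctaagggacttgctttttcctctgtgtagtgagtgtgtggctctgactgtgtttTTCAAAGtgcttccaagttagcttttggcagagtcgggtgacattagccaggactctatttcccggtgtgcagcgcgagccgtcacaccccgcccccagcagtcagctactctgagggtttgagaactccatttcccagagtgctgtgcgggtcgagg
The window of Gsk3a held 1 match, TTCAAAG, which is CTTTGAA on the other strand and begins at position -158 from the start site. The windows of Axin2 and Dvl1 held 0 matches. Of all 32851 promoters of this length in the table, 14.8% held a match. The share of G and C was 69.2% for Axin2, 71.2% for Dvl1 and 52.0% for Gsk3a. These matches describe letters in a short window and no binding was measured.

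Library totals ran from 10.1 to 24.5 M counts (M, mega). The values below are counts per M counts (CPM) on a library size scaled by edgeR's trimmed mean of M values (TMM). A gene is said to have risen or fallen where the Benjamini-Hochberg adjusted p of edgeR's quasi-likelihood test over all 15316 genes was under 0.05. That test did not use the pairing of libraries by culture. Calls of the 10 genes that changed with the culture as a block are given beside it. The 3 doses were compared with the same 3 DMSO libraries and are not independent of each other. Values in brackets after a log2 difference are standard errors (SE) from the model.

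At 3 µM, Axin1, Axin2, Gsk3a, Csnk1a1 and Dvl1 rose and Btrc fell, while Apc, Gsk3b, Nkd1 and Nkd2 did not pass the test. These 6 of 10 stand beside 57.5% of all tested genes called at this dose, 29.9% higher and 27.7% lower. The members' median log2 difference was 0.47, against -0.03 over all genes. At 1.5 µM, 2 of the 10, Axin2 and Dvl1, were called, both higher, where 27.3% of all genes were called and 15.4% were higher. With the culture as a block, Axin1, Btrc and Nkd2 joined them, making 5 of 10 beside 46.7% of all genes. At 1 µM, 0 of the 10 were called, where 0.242% of all genes were. Axin2, Nkd2 and Dvl1 had an unadjusted p under 0.05 there in edgeR, as did 11.7% of all genes. The block called Axin2 alone beside 5.61% of all genes, and DESeq2 called Axin2 and Dvl1 among 470 genes in all. A slope over the 4 doses called 6 of the 10, the genes called at 3 µM, beside 58.2% of all genes.

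**Figure D1:**
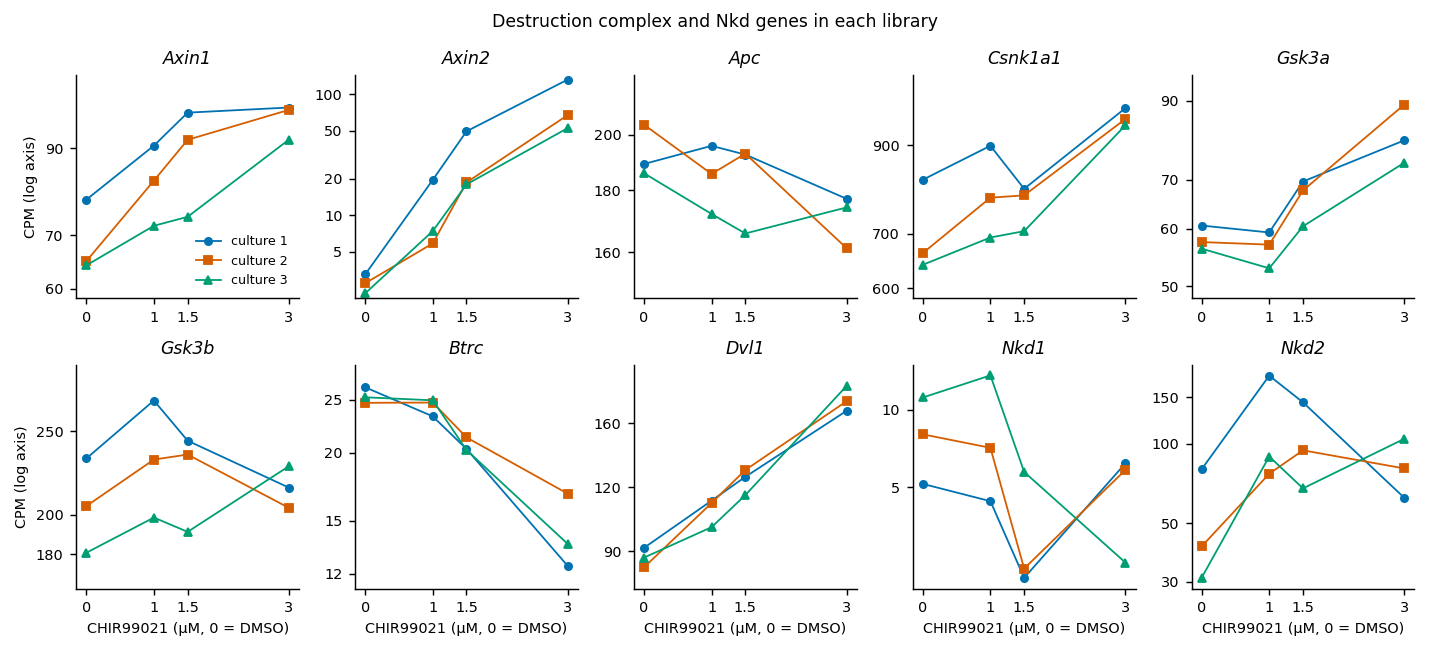
CPM of the 10 genes in each of the 12 libraries (vertical, log axis with its own range in each panel) against the dose of CHIR99021 in µM (horizontal, 0 is DMSO). Each line joins the 4 libraries of 1 culture. Axin2 and Dvl1 climb and Btrc declines in all 3 cultures. At 1.5 µM Nkd1 is below and Nkd2 above DMSO in all 3 cultures, and at 3 µM the cultures differ in direction for both.

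Among the scaffolds, Axin2 moved most and started lowest. The gene (ENSMUSG00000000142, chromosome 11, 108920349 to 108950783, plus strand) was read 73, 27 and 42 times in DMSO cultures 1, 2 and 3. That is 3.24, 2.74 and 2.26 CPM. At 1 µM its level was 19.5, 5.85 and 7.39 CPM in the same order. Every library at 1 µM was thus above every DMSO library, with culture 1 far ahead of the other two. At 1.5 µM the level was 49.3, 18.6 and 17.96 CPM. At 3 µM it was 132, 67.2 and 52.4 CPM. The ranges of 1.5 and 3 µM do not overlap, those of 1 and 1.5 µM do, and culture 1 was the highest in every group. Against DMSO the log2 difference was 1.98 (SE 0.594, adjusted p 0.222, and 0.00887 with the block) at 1 µM. It was 3.37 (SE 0.613, adjusted p 0.00355) at 1.5 µM and 4.92 (SE 0.648, adjusted p 0.000147) at 3 µM, a 30.3-fold rise. All 3 cultures rose at 3 µM, by 5.30, 4.56 and 4.47 on the log2 scale. Per µM the fitted slope was 1.62 (SE 0.209, adjusted p 5.89e-05).

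Axin1, the scaffold present without a signal (ENSMUSG00000024182, chromosome 17, 26138688 to 26195811, plus strand), rose much less. Its level was 77.6, 65.0 and 64.2 CPM in DMSO and 90.7, 82.0 and 71.98 CPM at 1 µM. It was 99.8, 92.3 and 73.9 CPM at 1.5 µM and 101, 100.6 and 92.3 CPM at 3 µM. Only the 3 µM libraries all lay above all DMSO libraries, and the middle doses overlapped their neighbours. The log2 difference at 3 µM was 0.51 (SE 0.130, adjusted p 0.00707), which is 42.2% higher. The difference at 1.5 µM was 0.36 (SE 0.129) with an adjusted p of 0.0613, and 0.0043 with the block. Without DMSO replicate 1 or without the replicate 3 library of 1.5 µM, Axin1 was called at 1.5 µM, with adjusted p of 0.0387 and 0.0212.

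Apc, the large scaffold lost in familial adenomatous polyposis (ENSMUSG00000005871, chromosome 18, 34220924 to 34322189, plus strand), was not called at any dose. Its level was 189, 204 and 186 CPM in DMSO, 196, 186 and 172 CPM at 1 µM, and 193, 193 and 166 CPM at 1.5 µM. The 3 µM libraries held 177, 161 and 174 CPM. These last 3 values lie below the 3 DMSO values without overlap, and the log2 difference was -0.18 (SE 0.0858, adjusted p 0.103). The call depended on the scaling, since scaling by library size alone gave -0.37 (adjusted p 0.00854) and upper-quartile scaling -0.28 (adjusted p 0.0181). Those scalings put the median of all genes at -0.23 and -0.13, against -0.03 with TMM. Under library size alone, Axin1 (0.30, adjusted p 0.0913) and Csnk1a1 (0.26, adjusted p 0.132) kept a positive difference at 3 µM but were not called.

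Of the kinases, Csnk1a1 had the highest level of the 10 genes, per kilobase of exon, in every group. It encodes casein kinase 1α, which places the priming phosphate on β-catenin (ENSMUSG00000024576, chromosome 18, 61555274 to 61590061, plus strand). Its level was 816, 663 and 641 CPM in DMSO, 899, 776 and 693 CPM at 1 µM, and 795, 781 and 705 CPM at 1.5 µM. The level rose at 3 µM to 1000.1, 969.7 and 953 CPM. The 3 libraries at 3 µM were close together and above all 9 others, while the lower doses overlapped DMSO. The log2 difference at 3 µM was 0.46 (SE 0.124, adjusted p 0.00893), or 37.8% higher. Leaving out DMSO replicate 3 gave 0.36 with an adjusted p of 0.0503, and fitting the 2 groups alone gave 0.44 with an adjusted p of 0.0537.

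Gsk3a and Gsk3b encode GSK3α and GSK3β, the paralogous kinases that CHIR99021 inhibits. Gsk3a (ENSMUSG00000057177, chromosome 7, 25228258 to 25237851, minus strand) was at 60.6, 57.5 and 56.3 CPM in DMSO and 59.3, 57.0 and 52.9 CPM at 1 µM. It was at 69.6, 67.7 and 60.4 CPM at 1.5 µM and at 79.4, 88.9 and 73.9 CPM at 3 µM. DMSO and 1 µM overlapped, and the 3 µM libraries stood above all others. The log2 difference at 3 µM against DMSO was 0.47 (SE 0.0903, adjusted p 0.00134), 38.9% higher. Of the bases in its exons, 28.28% are shared with an antisense gene, 9130221H12Rik, which had 43 to 142 counts per library against at least 566 for Gsk3a. Whether the counting used the strand is not given in the sources used here, and the part of that overlap in the Gsk3a value was not tested.

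Gsk3b (ENSMUSG00000022812, chromosome 16, 38089001 to 38246084, plus strand) did not pass the test at any dose. Its level was 232, 205 and 181 CPM in DMSO, 271, 232 and 199 CPM at 1 µM, and 244, 235 and 191 CPM at 1.5 µM. The 3 µM libraries held 215, 204 and 228 CPM. The groups overlapped throughout, and culture 3 was the lowest in the first 3 groups and the highest at 3 µM. The log2 difference at 3 µM was 0.06 (SE 0.139, adjusted p 0.705).

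Btrc, the substrate receptor of the ubiquitin ligase that takes up phosphorylated β-catenin (ENSMUSG00000025217, chromosome 19, 45363734 to 45533341, plus strand), was the 1 member that fell. Its level was 26.4, 24.7 and 25.3 CPM in DMSO and 23.3, 24.7 and 24.9 CPM at 1 µM. It was 20.3, 21.3 and 20.2 CPM at 1.5 µM and 12.4, 16.8 and 13.6 CPM at 3 µM. DMSO and 1 µM overlapped, and then each higher dose lay wholly below the one before. The log2 difference was -0.30 (SE 0.115, adjusted p 0.0747, and 0.0384 with the block) at 1.5 µM and -0.83 (SE 0.116, adjusted p 0.000199) at 3 µM, a decrease of 43.9%. Leaving out any 1 of the 3 µM libraries also called Btrc at 1.5 µM, with adjusted p of 0.0386, 0.0206 and 0.0428.

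Dvl1 encodes a Dishevelled protein, which carries the WNT signal to the complex (ENSMUSG00000029071, chromosome 4, 155847402 to 155859303, plus strand). Its level was 91.4, 83.8 and 87.5 CPM in DMSO and 113, 112 and 100.3 CPM at 1 µM. It was 126, 129.7 and 116 CPM at 1.5 µM and 169, 177 and 189 CPM at 3 µM. No group overlapped its neighbour, so each dose stood above the one before in all 3 cultures. The log2 difference was 0.31 (SE 0.0784, adjusted p 0.148) at 1 µM, 0.50 (SE 0.0785, adjusted p 0.00173) at 1.5 µM and 1.03 (SE 0.0791, adjusted p 5.93e-06) at 3 µM, a 2.04-fold rise. It had the lowest adjusted p of the 10 genes at 3 µM.

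The feedback inhibitors Nkd1 and Nkd2, which bind Dishevelled, did not pass the test without the block at any dose. Their spread between cultures was wide, and with the block Nkd2 was called at 1.5 µM. Nkd1 (ENSMUSG00000031661, chromosome 8, 88521344 to 88594887, plus strand) had 35 to 239 counts per library. It was at 5.15, 8.02 and 11.1 CPM in DMSO cultures 1, 2 and 3 and at 4.42, 7.11 and 13.6 CPM at 1 µM. It was at 2.23, 2.42 and 5.74 CPM at 1.5 µM and at 6.19, 5.84 and 2.55 CPM at 3 µM. Culture 3 was the highest in DMSO and at the lower doses and the lowest at 3 µM, and the groups overlapped. The log2 difference against DMSO was -1.23 (SE 0.538, adjusted p 0.115, and 0.0548 with the block) at 1.5 µM. Within cultures 1, 2 and 3 this difference was -1.17, -1.68 and -0.95. At 3 µM it was -0.74 (SE 0.533, adjusted p 0.257), with 0.26, -0.45 and -2.08 in cultures 1, 2 and 3. Without the replicate 3 library of 1.5 µM the difference at 1.5 µM was -1.80, with an adjusted p of 0.0463.

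Nkd2 (ENSMUSG00000021567, chromosome 13, 73818534 to 73847631, minus strand) was higher than Nkd1 per kilobase of exon in every library. It was at 80.03, 40.8 and 31.1 CPM in DMSO and at 181, 76.9 and 89.4 CPM at 1 µM. It was at 143, 94.3 and 67.7 CPM at 1.5 µM and at 62.3, 80.5 and 104 CPM at 3 µM. DMSO culture 1 overlapped each of the other groups, and by 3 µM culture 1 had become the lowest and culture 3 the highest. Within cultures the log2 difference from DMSO was 1.18, 0.91 and 1.52 at 1 µM, 0.84, 1.21 and 1.12 at 1.5 µM and -0.36, 0.98 and 1.74 at 3 µM. The fitted difference was 1.19 (SE 0.440, adjusted p 0.329, and 0.0804 with the block) at 1 µM and 1.00 (SE 0.438, adjusted p 0.115, and 0.0352 with the block) at 1.5 µM. At 3 µM it was 0.70 (SE 0.437, adjusted p 0.192, and 0.051 with the block). Without DMSO replicate 1 it was called at both upper doses, with 1.50 (adjusted p 0.0349) at 1.5 µM and 1.20 (adjusted p 0.0423) at 3 µM.

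**Figure D2:**
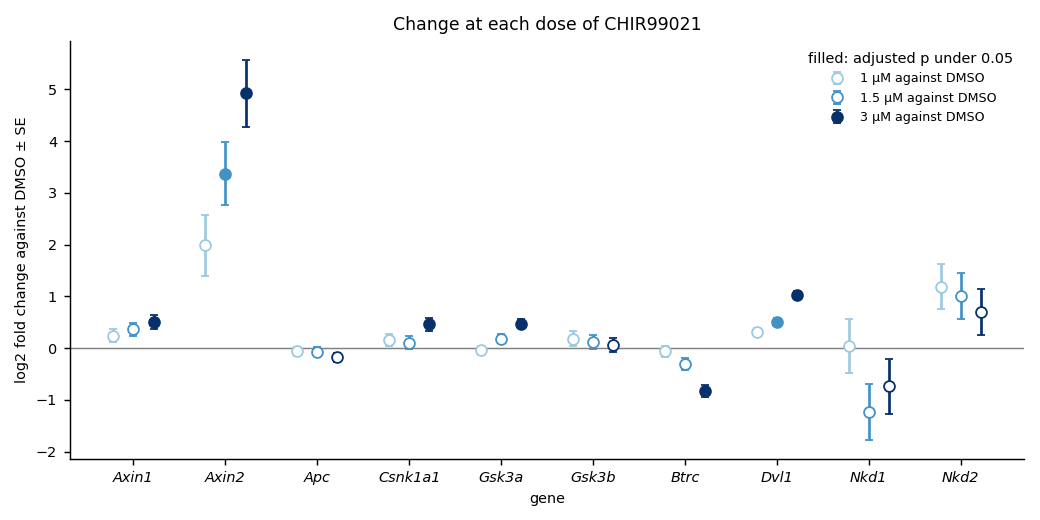
Log2 difference from DMSO (vertical, with bars of 1 SE from edgeR) for each gene (horizontal) at 1, 1.5 and 3 µM. Filled points had an adjusted p under 0.05. Axin2 rises to 4.92 at 3 µM, the other called genes lie between -0.83 and 1.03, and the wide bars of Nkd1 and Nkd2 are open at every dose.

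Neighbouring doses were compared directly. From 1 to 1.5 µM, 0 of the 10 genes were called in edgeR, where 5.43% of all genes were, and Axin2, Gsk3a, Nkd1 and Dvl1 had an unadjusted p under 0.05, as did 21.5% of all genes. DESeq2 also called 0, and the block called Axin2 and Gsk3a beside 21.9% of all genes. From 1.5 to 3 µM, 3 of 10 were called, Gsk3a and Dvl1 higher and Btrc lower, beside 29.7% of all genes. The log2 steps were 0.53 (SE 0.0784, adjusted p 0.00125) for Dvl1, -0.53 (SE 0.116, adjusted p 0.0079) for Btrc and 0.29 (SE 0.090, adjusted p 0.0343) for Gsk3a. The Gsk3a step was lost on leaving out any 1 of 5 libraries. These were replicate 2 of 1 µM, replicates 2 and 3 of 1.5 µM and replicates 1 and 2 of 3 µM, with adjusted p of 0.0519, 0.0714, 0.116, 0.065 and 0.111. With scaling by library size alone that step was 0.01 (adjusted p 0.921). The Dvl1 step was 0.25 (adjusted p 0.0717) with that scaling, and the Btrc step was lost when the 2 groups were fitted alone (-0.54, adjusted p 0.0543). With the block, Axin2 (adjusted p 0.000399) and Csnk1a1 (adjusted p 0.00798) were called as well, making 5 of 10 beside 46.7% of all genes. Leaving out the replicate 1 library of 1 µM called the same 5 genes.

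To set genes side by side, CPM was divided by the length of the exons in kilobases. That length joins all annotated exons of a gene, 16908 bases for Btrc and 16116 for Apc. The order below depends on it, and which transcript forms were expressed was not tested. In DMSO Csnk1a1 was first, at 67.3 ± 9.09 CPM per kb (SD, n = 3). Gsk3b (20.95 ± 2.63), Gsk3a (20.04 ± 0.762), Axin1 (18.01 ± 1.97) and Dvl1 (17.5 ± 0.768) followed, each overlapping the next. Apc (12.0 ± 0.593) and Nkd2 (10.5 ± 5.37) also overlapped, and Nkd1 (1.78 ± 0.658), Btrc (1.50 ± 0.0502) and Axin2 (0.499 ± 0.0892) were the lowest. Nkd1 and Btrc shared a range there, and Axin2 lay below both. In CPM, not divided by length, Btrc (mean 25.4) was above Nkd1 (mean 8.11) in DMSO. At 3 µM Csnk1a1 was still first, at 92.8 ± 2.29 CPM per kb. Dvl1 (35.7 ± 2.02) was second and apart from Gsk3a (27.8 ± 2.61) and Axin1 (25.6 ± 1.31), which overlapped. Gsk3b (21.9 ± 1.22), Nkd2 (17.1 ± 4.36) and Axin2 (15.2 ± 7.68) came next with overlapping ranges. Apc (10.6 ± 0.524) lay inside the range of Axin2, and Nkd1 (1.07 ± 0.440) and Btrc (0.844 ± 0.135), which overlapped, were last. Axin2 had thus gone from below the other 9 genes to a range that overlapped that of Nkd2.

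**Figure D3:**
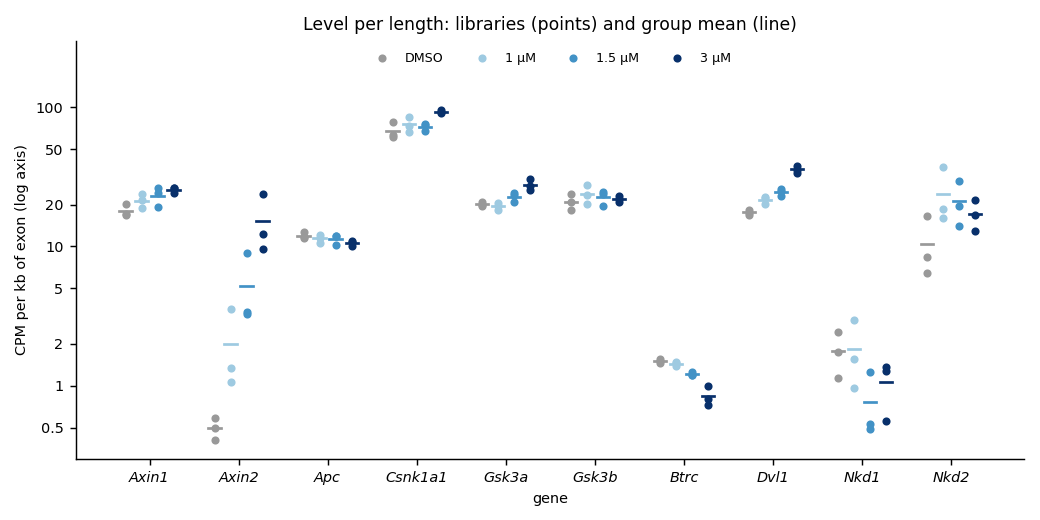
CPM per kilobase of exon (vertical, log axis) for each gene (horizontal). Points are the 3 libraries of a group and lines are group means, for DMSO, 1, 1.5 and 3 µM. Csnk1a1 is highest in every group, and Axin2 climbs from 0.499 in DMSO to 15.2 at 3 µM.

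Ratios between paralogs were taken within each library, so that scaling between libraries drops out. Their slopes over dose were tested by permuting doses within cultures in an exact two-sided test of 13824 arrangements, adjusted over 4 ratios. The Axin2 to Axin1 ratio rose by 1.44 per µM on the log2 scale (exact permutation p 0.000145, adjusted 0.000434), and in 3 of 3 cultures. Per kilobase, Axin2 stood at 2.91%, 2.93% and 2.45% of Axin1 in DMSO cultures 1, 2 and 3. At 3 µM it stood at 90.6%, 46.4% and 39.5%. Axin1 was thus the more abundant of the 2 RNAs per kilobase in every library, by a small margin in culture 1 at 3 µM. In counts, Axin2 was above Axin1 in that library, with 1683 against 1292. The order per kilobase rests on annotated exon lengths of 5506 bases for Axin2 and 3828 for Axin1. Which transcript forms were expressed was not tested.

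Gsk3a stood at 88.3%, 95.2% and 105.5% of Gsk3b per kilobase in DMSO and at 125%, 148% and 110.05% at 3 µM. The log2 ratio rose by 0.16 per µM (exact permutation p 0.0279, adjusted 0.0372), with 0.20, 0.24 and 0.04 in cultures 1, 2 and 3. It was no longer past the threshold without culture 1 (0.14 per µM, adjusted p 0.116 by exact permutation) or without culture 2 (0.12 per µM, adjusted p 0.171 by exact permutation). Nkd1 to Nkd2 had a slope of -0.50 per µM (exact permutation p 0.180), with 0.28, -0.49 and -1.29 in cultures 1, 2 and 3.

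Fbxw11 is the paralog of Btrc and encodes the other β-TrCP. It was at 119, 117 and 104 CPM in DMSO and at 160.04, 164 and 146 CPM at 3 µM, so that the groups did not overlap. Its log2 difference was 0.46 (SE 0.0848, adjusted p 0.00104), opposite in sign to that of Btrc. The Btrc to Fbxw11 ratio fell by 0.46 per µM on the log2 scale (exact permutation p 0.000217, adjusted 0.000434), in 3 of 3 cultures. Btrc made up 17.4% to 19.5% of the counts of this pair in DMSO and 7.19% to 9.29% at 3 µM. Per kilobase, Btrc stood at 5.64%, 5.37% and 6.21% of Fbxw11 in DMSO cultures 1, 2 and 3. At 3 µM it stood at 1.98%, 2.62% and 2.38%. These per-kilobase values rest on annotated exon lengths, which are 16908 bases for Btrc.

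**Figure D4:**
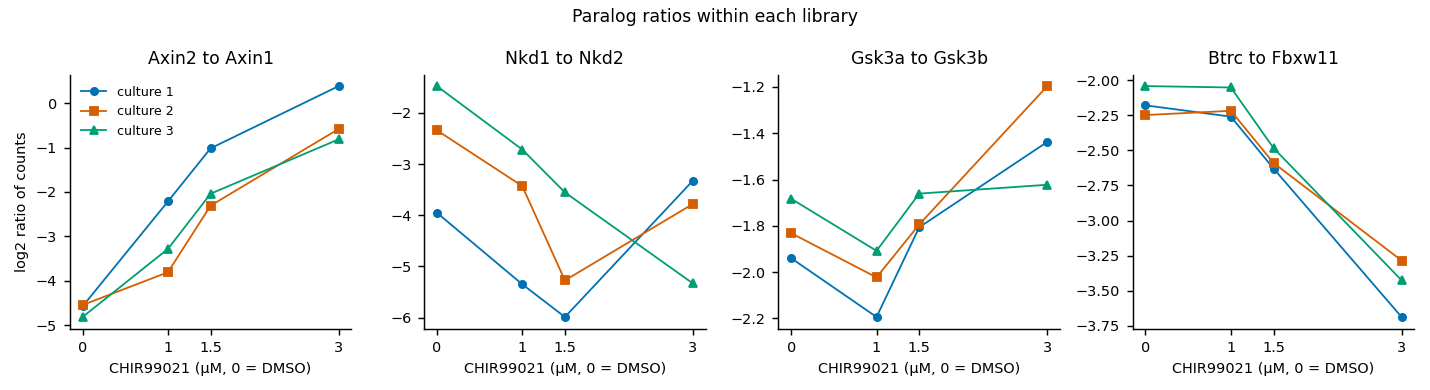
Log2 ratio of counts of the first to the second gene within each library (vertical, own range in each panel) against CHIR99021 in µM (horizontal, 0 is DMSO). Lines join the libraries of 1 culture. Axin2 to Axin1 rises and Btrc to Fbxw11 falls in all 3 cultures, while the order of the cultures for Nkd1 to Nkd2 differs between DMSO and 3 µM.

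Differences between cultures, tested over all doses together, were called for Axin1 (adjusted p 0.0231) and Axin2 (adjusted p 0.00214), which is 2 of 10 beside 28.8% of all genes. Culture 1 was the highest for both genes in every group. Axin1 lost this call without replicate 1 of DMSO, replicates 1 or 3 of 1 µM, or replicates 1 or 3 of 1.5 µM. In those runs Axin2 was the 1 gene of the 10 called, beside 2620 to 3240 of all genes. Without replicate 3 of 3 µM, 6 of the 10 were called, with Gsk3b, Csnk1a1, Nkd1 and Nkd2 added, beside 5803 of all genes. A difference in slope between cultures was called by edgeR for 0 of the 10 genes and for 0% of all genes. At an unadjusted p under 0.05 it held for 0 of the 10 and for 1230 of all genes. For Nkd1 and Nkd2, whose courses looked different in the 3 cultures at 3 µM, its adjusted p was 0.772 and 0.826.

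Other genes of β-catenin phosphorylation and turnover were followed as a list of 27, of which 26 were tested. At 3 µM, 12 of the 26 rose, 5 fell and 9 were not called, with a median log2 difference of 0.22 against -0.03 over all genes. Called in all were 17 of 26, where 57.5% of all genes were called, 29.9% higher and 27.7% lower. At 1.5 µM 0 rose and 2 fell, beside 27.3% of all genes called, and at 1 µM 0 were called, beside 0.242% of all genes. The block called 7 at 1.5 µM and 2 at 1 µM, beside 46.7% and 5.61% of all genes. Ctnnb1, which encodes β-catenin itself, was at 971, 856 and 671 CPM in DMSO and at 1236, 1239 and 1616 CPM at 3 µM. These groups did not overlap, and the log2 difference was 0.71 (SE 0.167, adjusted p 0.00443). Ppp2r5a and Ppp2r5b, regulatory subunits of the phosphatase PP2A, fell by 1.69 (adjusted p 0.00111) and 0.80 (adjusted p 0.0387) on the log2 scale. Amer1, a scaffold that brings APC and AXIN to the membrane, fell by 0.73 (adjusted p 0.000728). Siah1b, a ubiquitin ligase of the SIAH family, rose by 1.15 (adjusted p 0.0148), but its reads may be split with those of its near-identical paralog Siah1a (-0.19, adjusted p 0.452).

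Among 16 genes listed as partners and regulators of Dishevelled, all tested, 1 rose, 8 fell and 7 were not called at 3 µM. Their median log2 difference was -0.64. These 9 of 16 stand beside the 57.5% of all genes called at this dose. At 1.5 µM 1 rose and 3 fell, beside 27.3% of all genes called. The block called 10 there, beside 46.7% of all genes. At 1 µM 0 were called without the block, beside 0.242% of all genes. Dvl2, a paralog of Dvl1, was the 1 that rose, by 0.32 (adjusted p 0.015), while Dvl3 had a difference of -0.06 (adjusted p 0.661). These paralogs were singled out after their values had been seen. Dact3, a Dishevelled antagonist, fell by 1.87 (adjusted p 0.0421), though its ranges overlapped. Nedd4l, a ubiquitin ligase that can act on Dishevelled, fell by 1.45 (adjusted p 0.000307). Invs, which encodes inversin, fell by 1.28 (adjusted p 0.000862), and Ccdc88a, which encodes girdin, fell by 1.18 (adjusted p 0.000451).

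Of 12 other genes listed as WNT feedback targets, 10 were tested. The list comes from earlier work on these data, so its counts are a description only. At 1 µM 0 of the 10 were called, beside 0.242% of all genes. At 1.5 µM 4 rose and 1 fell, which is 5 of 10 beside 27.3% of all genes. The block called 2 and 5 at these doses, beside 5.61% and 46.7% of all genes. At 3 µM 4 rose and 2 fell, which is 6 of 10 beside 57.5% of all genes. The transcription factor gene Tcf7 rose from 7.68 ± 4.24 to 47.8 ± 1.96 CPM (SD, n = 3), by 2.62 on the log2 scale (adjusted p 0.000161). Tnfrsf19, which encodes a receptor of the tumour necrosis factor family, rose by 4.27 (adjusted p 0.000803). It had only 14, 3 and 47 counts in DMSO cultures 1, 2 and 3, and rose by 5.63, 5.62 and 2.30 within them. Znrf3, which encodes a ubiquitin ligase that removes WNT receptors, rose by 1.27 (adjusted p 0.000146). Lgr5, a receptor for R-spondins, went the other way, from 187 ± 39.6 to 0.288 ± 0.168 CPM.

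The cell types in the organoids also moved with the dose, and in bulk RNA fewer cells of a type cannot be told apart from less RNA per cell. Summed CPM of 10 squamous markers ran from 4.98 to 24.9 in DMSO and from 1924 to 18723 at 3 µM, with 10 of 10 higher. By culture, the squamous sum at 3 µM was 18723, 15136 and 1924 CPM in cultures 1, 2 and 3, so culture 3 was far below the others. Of 9 basal markers, 4 rose (Krt5, Krt14, Krt17 and Trp63) and 5 fell (Acta2, Myh11, Cnn1, Mylk and Oxtr). Their median log2 difference at 3 µM was -4.05. Their sum ran from 2153 to 3472 in DMSO and from 16155 to 33977 at 3 µM. Krt14 alone held 8753 to 20345 CPM of the sum at 3 µM. Acta2 ran from 258 to 428 CPM in DMSO and from 5.87 to 19.3 CPM at 3 µM. Of 10 luminal markers, 6 fell, and their sum ran from 3601 to 6030 in DMSO and from 2959 to 3195 at 3 µM. Endothelial markers fell in 5 of 5, and their sum ran from 243 to 503 in DMSO and from 27.1 to 86.6 at 3 µM. Of 7 immune markers 5 were tested and 4 fell. Their sum ran from 256 to 2520 in DMSO and from 39.0 to 116 at 3 µM, with Cd3e at 0 in all libraries at 1.5 µM. No basal or luminal marker was at 0 throughout a group. The part of these shifts in the members' changes was not tested.

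Fibroblast and immune markers differed widely between cultures, in the same order as Nkd1 in DMSO. The sum of the 7 fibroblast markers was 1624, 7372 and 20508 CPM in DMSO cultures 1, 2 and 3, where Nkd1 was at 5.15, 8.02 and 11.1 CPM. At 3 µM the sum was 175, 972 and 4569 CPM, in the same culture order, while Nkd1 was the lowest in culture 3. Dcn went against the sum in culture 3, from 625 CPM in DMSO to 1071 CPM at 3 µM, and was lower at 3 µM in cultures 1 and 2. The other fibroblast markers were lower at 3 µM than in DMSO in every culture. Of these 7 genes, 0 were called at 3 µM in edgeR without the block and 6 with it, where the block called 68.9% of all genes. At 1.5 µM the counts were 0 without the block and 7 with it, beside 46.7% of all genes. The sum of the 7 immune markers was 256, 1328 and 2520 CPM in DMSO cultures 1, 2 and 3 and 39.0, 109 and 116 CPM at 3 µM. The part of fibroblast and immune RNA in the Nkd1 values was not tested.

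The genes most like Axin2, Nkd1 and Nkd2 across the 12 libraries were found by Pearson's r of log2 CPM among 12439 tested genes with at least 50 counts on average. The libraries share dose and culture, so r is given as a description. For Axin2 they were Taf1d (r = 0.982), Urb2 (r = 0.976) and Ddx20 (r = 0.974). Taf1d ran from a mean of 18.6 CPM in DMSO to 63.5 CPM at 3 µM, a smaller range than that of Axin2. For Nkd1 they were Syk (r = 0.914), Ntpcr (r = 0.901) and BC003331 (r = 0.896). Syk, a kinase gene of blood cells and some epithelia, had a mean of 15.5 CPM in DMSO, and of 11.2, 3.92 and 4.19 CPM at the 3 doses from low to high. For Nkd2 they were Zfp553 (r = 0.870), Tbc1d30 (r = 0.868) and Ephb6 (r = 0.867). Ephb6, an Eph receptor gene, had a mean of 61.6 CPM in DMSO, and of 72.7, 77.1 and 66.5 CPM at the 3 doses from low to high.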

How the data were processed

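The authors deposited raw counts of reads for each Ensembl gene, and log2 values made from them. Those deposited log2 values are the count scaled to 10 M (mega) reads plus 1, on a log2 scale, and 0 of them differed on recomputation (tolerance 1e-06), so only the counts were used. The submitters' processing notes name TopHat2 2.1, Bowtie 1.1.0, HTSeq, DESeq2 and the builds GRCm38 and mm10. Their options, the annotation release and any strand setting are not given in the sources used here. Coordinates are the table's. Of its 25210 identifiers, 24902 are in GENCODE M21 (GRCm38), 99.876% of them on the same chromosome and 79.3% with the same start. Exon lengths and overlaps came from GENCODE M21, and promoters from RefSeq (GRCm38.p6).

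Genes were kept with filterByExpr (15316) and fitted without a block by edgeR 4.0.16 (R 4.3.3, limma 3.58.1), with TMM scaling, glmQLFit and glmQLFTest, two-sided. P-values were adjusted over all genes tested, with a threshold of 0.05. Slopes took DMSO as 0. Difference tests between cultures used models with group and culture, and with culture, dose and their product. Alternatives were the culture as a block, DESeq2 1.42.0, other scalings and filters, only the groups compared, thinning to the smallest library, and leaving out libraries. Ratios used counts plus 0.5. Scripts were tested on simulated data.

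Replicate numbers are animals and pair the libraries. Deviations from group means correlated in 18 same-number pairs by 0.177 to 0.840 (median 0.505), against a median of -0.212 in 36 other pairs. Adding the block lowered the biological coefficient of variation from 0.305 to 0.156. No library was a copy of another of its group (chi-square per degree of freedom of their counts at least 13.4). No molecular identifiers are described.

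The members, lists and tests were chosen with earlier results of these data known, and the feedback list comes from that earlier work. Named beside the members were at most 4 genes of each list with the largest called change at 3 µM, at least 50 counts on average and 1 direction in all 3 cultures, with Ctnnb1 always, and the 3 genes most like Axin2, Nkd1 and Nkd2. Fbxw11 was fixed as the partner of Btrc in the ratios.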

Additional observations from a re-analysis of the deposited data

How the results depend on the processing

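At 3 µM the call of Axin2, Dvl1, Btrc and Gsk3a held under all 23 alternatives run, with log2 differences of 4.41 to 5.19, 0.83 to 1.09, -1.04 to -0.72 and 0.27 to 0.51. The replicate block called 1 of the 10 genes at 1 µM and 5 at 1.5 µM, beside 5.61% and 46.7% of all genes. It called 2 from 1 to 1.5 µM and 5 from 1.5 to 3 µM, beside 21.9% and 46.7%. At 3 µM and by slope the block changed no call. DESeq2 called 2 at 1 µM, 5 from 1.5 to 3 µM and 4 between cultures, beside 470, 5360 and 5467 of all genes. On leaving out single libraries, the counts stayed at 0 at 1 µM and from 1 to 1.5 µM. They ran from 2 to 4 at 1.5 µM, 2 to 5 from 1.5 to 3 µM and 1 to 6 between cultures. Leaving out 1 culture with the block gave 0 to 2 at 1 µM, beside 0 to 1569 of all genes. At 1.5 µM it gave 2 to 5, beside 3235 to 7480. From 1 to 1.5 µM it gave 0 to 2, beside 114 to 4063. From 1.5 to 3 µM it gave 2 to 6, beside 3086 to 7751. The slope of the Gsk3a to Gsk3b ratio ran from 0.12 to 0.22 on leaving out a culture. The counts over all genes also moved on leaving out single libraries. At 1 µM 37 became 6 to 54 (6 without DMSO replicate 2), and from 1 to 1.5 µM 831 became 140 to 1523 (140 without replicate 2 of 1 µM, 1523 without replicate 3 of 3 µM). At 1.5 µM 4177 became 2565 to 5066 (2565 without DMSO replicate 2 and 2590 without replicate 1 of 1.5 µM). From 1.5 to 3 µM 4544 became 2974 to 5664 (2974 without replicate 2 of 3 µM and 3002 without replicate 2 of 1.5 µM), and between cultures 4418 became 2620 to 5803 (2620 and 2844 without replicates 1 and 3 of 1 µM). At 3 µM 8814 became 7495 to 9294. No called value of the 10 genes changed sign, and 39 of 932 values that were not called did. The causes were not tested. Nkd1, Axin2 and Tnfrsf19 in DMSO rest on few counts, which limits their precision.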
